A study of Homo sapiens with 6 samples.

Results

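Matricellular proteins are secreted into the space around cells, where they bind receptors, growth factors and proteases instead of building the load-bearing matrix. The thrombospondins, the CCN proteins, periostin, tenascin-C, SPARC and the spondins belong to this class or share its modules, and most are at low level in resting adult epithelium and made during repair, fibrosis and tumour growth. Thrombospondin-1 binds the receptors CD36 and CD47, can activate latent TGF-beta and restrains angiogenesis, while CCN1 and CCN2 are ligands of integrins and textbook targets of the YAP and TEAD transcription factors.

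The genes described here are 10 of the 63140 genes in the deposited tables: THBS1, THBS2, THBS3, CCN1, CCN2, POSTN, TNC, SPARC, SPON1 and SPON2. They were chosen by name with measured values of this same comparison known, for the large rise of THBS1 and the large fall of SPON1. Their difference between the lines is therefore given as a description with its error and with no p-value. All 10 were present and 9 passed the filter on low counts, among 14386 genes that did. THBS2 did not pass.

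RNA-seq libraries were compared from NOZ, an established human gallbladder cancer line, and NOZ-R, a gemcitabine-resistant line derived from it by raising the drug dose in steps, with 3 libraries of each. Gemcitabine is a nucleoside analogue that blocks DNA synthesis. NOZ-R is 1 derived line, and the sources used here do not give whether it is a clone, which doses were used or whether drug was present at harvest. The labels do not say whether the libraries came from separate cultures, so errors and p-values describe only how these libraries varied, which can be technical variation. In bulk RNA, fewer cells that make a transcript and less of it per cell cannot be told apart.

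Total counts ran from 14136037 to 19244923 per library. In the second NOZ library the deviation of a gene from the line's mean followed its GC content (rank correlation across genes, which are not independent replicates, -0.50), whereas the other NOZ libraries had 0.31 and 0.37 and the NOZ-R libraries lay between -0.21 and 0.29. Because each deviation is from the mean of the line's own 3 libraries, a trend in any library shifts the values of the others. The epithelial keratins were high in both lines (mean KRT7 of 390 ± 30.4 CPM, SD, n = 3, in NOZ against 824 ± 20.8 CPM in NOZ-R). Of 9 tested epithelial markers, 4 were called higher and 3 lower, among them CDH1, the E-cadherin gene, which had 14 to 26 counts in the NOZ libraries and 2 to 7 in the NOZ-R libraries. Without the second NOZ library, the log2 fold changes of the members were 5.56 for THBS1, -0.68 for THBS3, 1.67 for CCN1, 2.03 for CCN2, -4.97 for SPON1, -0.74 for SPON2, 0.74 for TNC and 2.40 for SPARC, each in the same direction as with it, and POSTN kept its call.

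The DNA just before the start of transcription is shown for THBS1, CCN2 and POSTN, to place the measured transcripts in their sequence context. They were taken from the members with a matched RefSeq promoter entry. No entry was matched for SPON1 or CCN1, so neither is shown. Capitals mark matches, on either strand, to letters that TEAD factors favour, GGAATG, to those of AP-1, TGANTCA, to those of the interferon-stimulated response element, GAAANNGAA, and to the TATA box, TATAAA. The letters CAGACA of SMAD factors and the CArG box of SRF were also searched and have no match in these 3 windows. Sequences are from RefSeq on GRCh38.p14, 5′ to 3′ on the gene's strand, and stop where the annotated gene begins.
THBS1 (chr15:39580829-39581078, + strand): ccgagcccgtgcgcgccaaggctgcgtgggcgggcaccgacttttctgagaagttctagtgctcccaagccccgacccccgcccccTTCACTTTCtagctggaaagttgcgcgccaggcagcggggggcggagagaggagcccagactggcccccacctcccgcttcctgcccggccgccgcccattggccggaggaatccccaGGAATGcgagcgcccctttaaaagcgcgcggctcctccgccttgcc
CCN2 (chr6:131951374-131951622, - strand): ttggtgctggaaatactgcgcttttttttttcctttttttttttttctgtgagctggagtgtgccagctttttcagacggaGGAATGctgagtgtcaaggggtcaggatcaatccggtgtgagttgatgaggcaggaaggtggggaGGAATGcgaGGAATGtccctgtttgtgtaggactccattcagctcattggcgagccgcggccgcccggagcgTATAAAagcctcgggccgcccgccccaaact
POSTN (chr13:37598845-37599018, - strand): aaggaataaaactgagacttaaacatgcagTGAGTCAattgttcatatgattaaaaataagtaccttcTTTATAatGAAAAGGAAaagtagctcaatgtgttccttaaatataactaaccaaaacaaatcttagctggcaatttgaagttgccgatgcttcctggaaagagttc

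RefSeq promoter entries were matched for 6 members, namely THBS1, THBS2, CCN2, POSTN, TNC and SPARC. In the 250 bases before the start, the TEAD letters were in 4 of the 6 (THBS1, THBS2, CCN2 and SPARC) and in 11.9% of 35116 promoters of the same length. CCN2 held 3 copies, 169 to 164, 104 to 99 and 95 to 90 bases before its start, and THBS1 held 1 copy, 46 to 41 bases before its start. The TATA box letters were in 3 of the 6 (THBS2, CCN2 and POSTN) and in 10.7% of all promoters, with a POSTN copy 29 to 24 bases before the RefSeq start, inside the stretch not shown. POSTN was the only matched member with the AP-1 letters, which 6.57% of all promoters held. The letters of the interferon-stimulated response element were in 2 of the 6 (THBS1 and POSTN) and in 6.88% of all promoters. Those of SMAD factors were in 2 of the 6 (THBS2 and TNC) and in 13.6% of all promoters. The windows differed in base composition, from 36.4% GC for POSTN to 69.6% for THBS1, against a median of 58% over all promoters. A match to these letters is a description of the sequence, and no binding was measured.

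CPM below are counts per 1000000 counts of the library after TMM scaling, which corrects for differences in composition between libraries. Of the 9 tested members, 6 were called higher in NOZ-R (THBS1, CCN1, CCN2, POSTN, TNC and SPARC) and 3 lower (THBS3, SPON1 and SPON2) at an edgeR adjusted p below 0.05. Over all 14386 tested genes 60.2% were called, with 30.4% higher and 29.8% lower, and since the members were selected on this contrast nothing is read from their count. Of the 10 members, 8 had CPM ranges that did not overlap between the lines, as did 65.3% of all tested genes. The median log2 fold change of the tested members was 1.74, beside -0.01 for all tested genes.

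**Figure D1:**
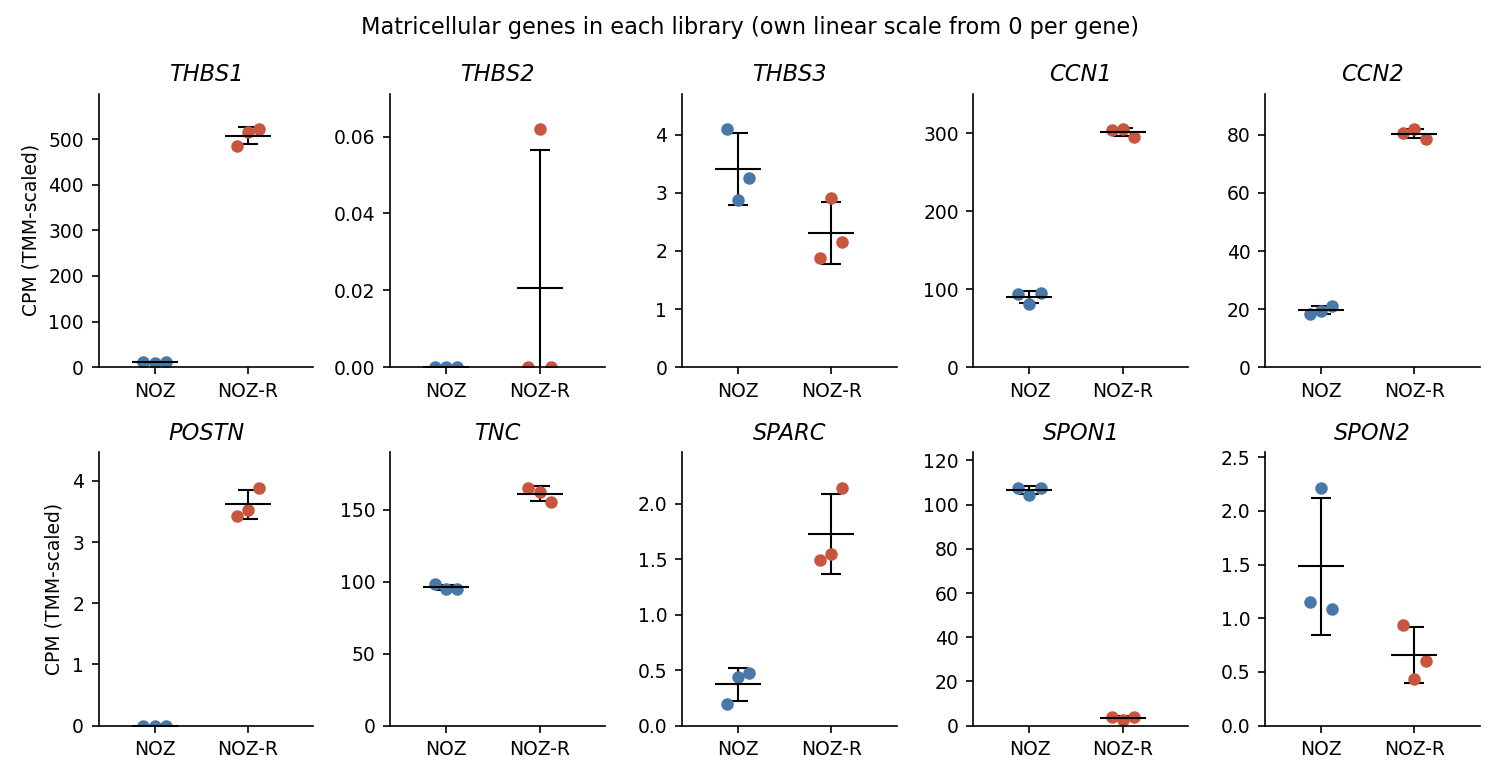
CPM of each matricellular gene (vertical axes, linear from 0 and scaled separately per gene) in the 3 NOZ and 3 NOZ-R libraries (points), with the mean and SD as black bars. Mean THBS1 goes from 10.6 to 508 CPM, mean SPON1 goes from 107 to 3.40 CPM, and the THBS3 points of the lines overlap.

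THBS1, on 15:39581079-39599466 of GRCh38 (+ strand), encodes thrombospondin-1, the founding member of its family. It was at 10.6, 10.1 and 11.0 CPM in the NOZ libraries and at 486, 516 and 522 CPM in the NOZ-R libraries. The lines were far apart and the libraries within each line close together. The means were 10.6 ± 0.451 and 508 ± 19.2 CPM (SD, n = 3), a log2 fold change of 5.59 ± 0.0699 (SE), or 48.0-fold. By size of log2 fold change THBS1 stood 116th from the highest of 14386 genes. The antisense gene THBS1-AS1 had no count in any library, and FSIP1, whose exons overlap it on the opposite strand, had 6 to 12 counts per library, against 163 to 8790 for THBS1.

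The other thrombospondins were at low level. THBS2, a close relative of THBS1 that also binds CD36 and CD47, had 0 counts in every library but the second NOZ-R library, which had 1. THBS3 (1:155195588-155209051, - strand), a pentameric thrombospondin of cartilage and bone, was at 4.09, 2.88 and 3.25 CPM in NOZ and at 1.88, 2.91 and 2.15 CPM in NOZ-R. The highest NOZ-R library was above the lowest NOZ library, so the ranges overlapped. The log2 fold change was -0.57 ± 0.226 (SE). Its call was lost in 8 of 18 alternative settings, among them those without NOZ replicate 1 (-0.40), NOZ replicate 3 (-0.59), NOZ-R replicate 1 (-0.43) or NOZ-R replicate 3 (-0.52). THBS3 shares exonic sequence at its 5′ end with MTX1 on the opposite strand. MTX1 had 194 to 382 counts per library, against 32 to 82 for THBS3. The antisense gene THBS3-AS1, whose exons also overlap those of THBS3, ranged from 1 to 10 counts per library. Without strand information, reads from the shared stretches cannot be told apart.

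CCN1 (1:85580761-85583962, + strand), formerly CYR61, encodes a heparin-binding integrin ligand made early after growth factor stimulation. It was at 94.2, 81.5 and 94.8 CPM in NOZ and at 304, 305 and 295 CPM in NOZ-R. Every NOZ-R library was above every NOZ library, with a log2 fold change of 1.74 ± 0.0655 (SE), or 3.34-fold. CCN2 (6:131948176-131951373, - strand), formerly CTGF, is a profibrotic relative of CCN1 with the same module order. It was at 18.4, 19.3 and 21.1 CPM in NOZ and at 80.5, 81.9 and 78.7 CPM in NOZ-R. The lines did not overlap, and the log2 fold change was 2.04 ± 0.0751 (SE), or 4.11-fold.

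POSTN (13:37562583-37598844, - strand) encodes periostin, an integrin-binding protein of fibroblast-rich matrix that helps collagen assembly. It had 0 counts in all 3 NOZ libraries, and the NOZ-R libraries had 62, 57 and 58, which is 3.43, 3.53 and 3.89 CPM. Taking 3 counts over the NOZ group as the limit that a count of 0 allows (0.0568 CPM), the NOZ-R level of POSTN was at least 63.4-fold higher. Limits of this kind cover counting error only. TNC (9:115019578-115118257, - strand), the gene of tenascin-C, a large hexameric glycoprotein that loosens cell adhesion, was at 98.1, 95.0 and 95.2 CPM in NOZ and at 165, 162 and 155 CPM in NOZ-R. Its ranges were separate and its difference was small beside that of the CCN genes, at a log2 fold change of 0.75 ± 0.0565 (SE).

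SPARC (5:151661096-151687165, - strand) encodes a collagen-binding and calcium-binding glycoprotein. Its counts were 4, 8 and 7 in NOZ against 27, 25 and 32 in NOZ-R, or 0.200, 0.443 and 0.474 CPM against 1.49, 1.55 and 2.15 CPM. The lines did not overlap, but all 6 libraries were at the low end of the range in which genes were tested. The log2 fold change was 2.23 ± 0.382 (SE). On the log2(FPKM + 1) scale, which understates changes of low genes, it was 0.32.

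SPON1 (11:13962689-14267884, + strand) encodes F-spondin, a secreted protein with thrombospondin type 1 repeats that binds the amyloid precursor protein and guides axons. It was at 107.5, 105 and 108 CPM in NOZ and at 4.04, 2.42 and 3.75 CPM in NOZ-R. All NOZ-R libraries were far below all NOZ libraries. The log2 fold change was -4.96 ± 0.119 (SE), so that the level in NOZ was 31.1-fold that in NOZ-R, and SPON1 stood 17th from the lowest of 14386 genes. Its antisense gene SPON1-AS1 had at most 2 counts in a library.

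SPON2 (4:1166932-1208962, - strand) encodes mindin, a spondin that recognises microbial surfaces and binds integrins. Its counts were 23, 40 and 16 in NOZ and 17, 7 and 9 in NOZ-R, or 1.15, 2.22 and 1.08 CPM against 0.940, 0.434 and 0.603 CPM. The ranges were separate but close, and the second NOZ library was the highest of the 6. The log2 fold change of -1.15 ± 0.399 (SE) became -0.74 without that library, and the call was then lost, as it was without NOZ-R replicate 2 (-0.92) or NOZ-R replicate 3 (-1.08).

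**Figure D2:**
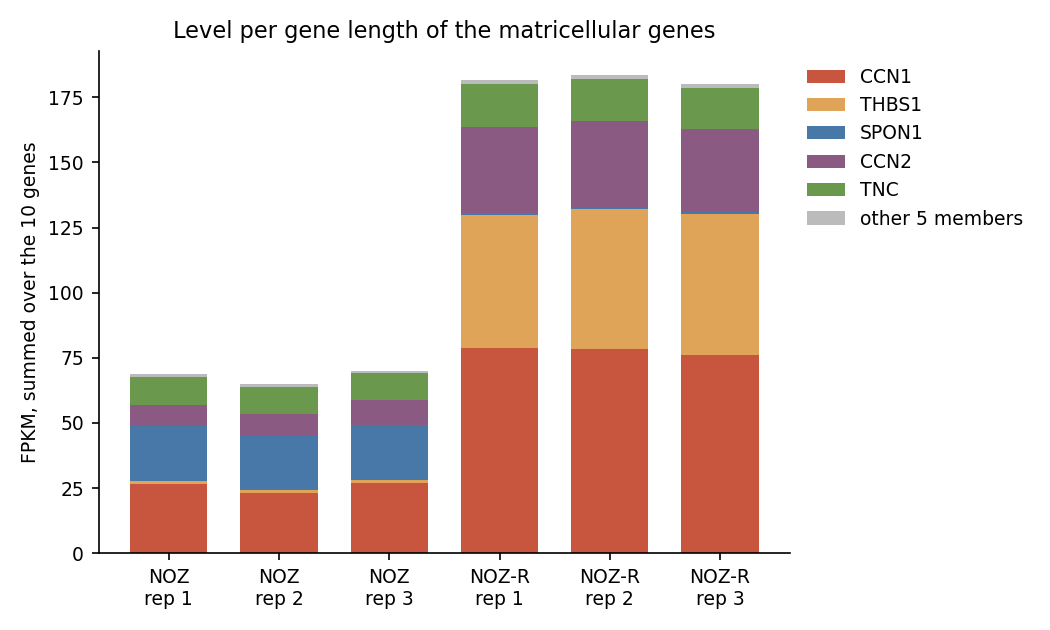
FPKM, a level per gene length, stacked over the 10 matricellular genes for each library (vertical axis, linear from 0). The NOZ bars reach 64.9 to 70.0 and hold SPON1 as a large block, and the NOZ-R bars reach 180.1 to 184 with THBS1 in a comparable place and almost no SPON1.

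Levels of different genes were compared on the deposited FPKM scale, which divides by gene length. In NOZ the order was CCN1 (25.5 ± 2.07 FPKM, SD, n = 3), SPON1 (20.9 ± 0.304), TNC (10.5 ± 0.158), CCN2 (8.76 ± 0.630) and THBS1 (1.21 ± 0.0506), followed by THBS3, SPON2 and SPARC, each below 1 FPKM. THBS2 and POSTN were at 0. Neighbours in this order had ranges that did not overlap, apart from the pair at 0.

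In NOZ-R the order was CCN1 (77.8 ± 1.57 FPKM, SD, n = 3), THBS1 (52.9 ± 1.78), CCN2 (32.8 ± 0.684) and TNC (16.0 ± 0.558). POSTN (0.632 ± 0.0405 FPKM), SPON1 (0.611 ± 0.157) and THBS3 (0.477 ± 0.109) followed with ranges that overlapped from each gene to the next, as did those of THBS3 and SPARC (0.356 ± 0.0736). CCN1 thus led in both lines, and the second place passed from SPON1 to THBS1.

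Summed over the 10 genes, FPKM was 67.9 ± 2.65 (SD, n = 3) in NOZ against 182 ± 1.80 in NOZ-R. Unlike the CPM, the FPKM are not TMM-scaled, so ratios between the lines differ between the 2 scales. SPON1 made up 30.8% ± 0.769 of that sum in NOZ and 0.337% ± 0.0886 in NOZ-R. THBS1 made up 1.78% ± 0.0248 in NOZ and 29.1% ± 1.05 in NOZ-R. The share of CCN1 was 37.4% ± 1.66 in NOZ and 42.8% ± 0.627 in NOZ-R, and the share of TNC was 15.4% ± 0.579 in NOZ and 8.82% ± 0.270 in NOZ-R although its own level was higher there.

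Likeness of pattern was measured as the mean absolute difference of centred log2 CPM (with a prior count of 2) over the 6 libraries, and the 3 nearest genes are named for THBS1 and for SPON1. For THBS1 these were DPP4 (0.12), AQP4 (0.12) and PTGS2 (0.13). PTGS2, the gene of the inducible cyclooxygenase, went from 1.20 ± 0.183 CPM in NOZ to 53.6 ± 2.73 CPM in NOZ-R (SD, n = 3). DPP4, a cell-surface peptidase, and AQP4, a water channel, had no count in NOZ, so their likeness depends on the prior count. Against 3 counts over the NOZ group, DPP4 was at least 114-fold and AQP4 at least 95.0-fold higher in NOZ-R.

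For SPON1 the nearest genes were NR5A2 (0.16), SYTL5 (0.29) and SLC6A20 (0.35). NR5A2, a nuclear receptor of liver and pancreas, had 241 counts in NOZ and 1 in NOZ-R, a ratio of scaled counts of 224 (exact 95% interval for counting error, 39.8 to 8889). SYTL5, a synaptotagmin-like protein, was at 51.3 ± 3.51 CPM in NOZ against 2.15 ± 0.186 CPM in NOZ-R. SLC6A20, a proline transporter, was at 14.3 ± 1.66 CPM in NOZ against 0.180 ± 0.109 CPM in NOZ-R, where it had 9 pooled counts. With so few NOZ-R counts, the likeness of NR5A2 and SLC6A20 depends on the prior count. Their log2 fold changes in the edgeR fit were -7.37 and -6.23, against -4.96 for SPON1 and -4.58 for SYTL5.

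The other genes of these pathways were read from the same edgeR fit, with p-values adjusted over all tested genes. The counts of each list stand beside 30.4% of all tested genes called higher and 29.8% called lower. With libraries scaled by size only, 3316 of all 14386 tested genes were called higher and 5468 lower. After GC correction these were 3990 and 5175. Splits of a list under those settings stand beside these shifted numbers. Of 17 further members of the thrombospondin, CCN, tenascin and SPARC families, 6 were tested, of which 3 rose and 2 fell, with a median log2 fold change of 1.0. The split was 3 higher and 3 lower both with size-only scaling and after GC correction. CCN3, an integrin ligand often opposed to CCN2, rose from 4.68 ± 1.28 to 21.8 ± 1.28 CPM (log2 fold change 2.20 ± 0.152 SE, edgeR adjusted p = 3.53e-08), and THBS4, a pentameric thrombospondin, rose from 13 pooled counts to 92 (2.90 ± 0.402, edgeR adjusted p = 2.96e-05; 3.56 without NOZ replicate 1, which held 8 of the 13). TNXB, the gene of tenascin-X, fell from 8.57 ± 1.07 to 1.72 ± 0.419 CPM (-2.30 ± 0.193, edgeR adjusted p = 2.43e-07), and SPOCK1, a testican proteoglycan of the SPARC family, fell from 171 ± 10.1 to 104 ± 4.73 CPM (-0.72 ± 0.0635, edgeR adjusted p = 3.96e-07). Tenascin-C and tenascin-X thus stood on opposite sides of 0.

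Of 24 other matricellular and adhesive glycoproteins, 12 were tested, 9 were higher and 1 lower, with a median log2 fold change of 0.70. FN1, the gene of fibronectin, which TNC and THBS1 bind, rose from 727 ± 15.8 to 2288 ± 45.2 CPM (1.65 ± 0.0445, edgeR adjusted p = 2.66e-12). AGRN, a basement membrane proteoglycan, rose by 1.47 ± 0.0657 in log2 units (edgeR adjusted p = 4.68e-10). LGALS3, the gene of galectin-3, was the 1 that fell (-0.32 ± 0.0591, edgeR adjusted p = 3.24e-04). Both with size-only scaling and after GC correction, 9 of this list were higher and 2 lower.

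The type 1 repeat shared by THBS1, THBS2 and the spondins occurs in other proteins and carries sugars added in the secretory pathway. Of 26 listed genes of this kind 12 were tested, 6 were higher and 3 lower, with a median log2 fold change of 0.40. The split was 6 higher and 4 lower with size-only scaling, and 6 and 3 after GC correction. THSD1 rose from 1.68 ± 0.271 to 8.92 ± 0.543 CPM (2.41 ± 0.171, edgeR adjusted p = 4.45e-08) and HMCN1, the gene of hemicentin, from 20 to 115 pooled counts (2.58 ± 0.411, edgeR adjusted p = 1.05e-04). THSD4, a microfibril protein, fell from 61.0 ± 1.10 to 25.2 ± 0.679 CPM (-1.28 ± 0.0701, edgeR adjusted p = 3.56e-09), and DPY19L1, an enzyme that mannosylates the repeat, fell by 0.49 ± 0.0596 (edgeR adjusted p = 8.88e-06).

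Of 30 receptors of these proteins, 21 were tested, 15 were higher and 3 lower, with a median log2 fold change of 0.34. The split was 11 higher and 4 lower when libraries were scaled by size only, and 12 and 4 after GC correction. CD36, the receptor through which thrombospondins restrain endothelial cells, was not tested, with NOZ counts of 5, 4 and 7 against 1, 2 and 3 for NOZ-R. CD47, the other thrombospondin receptor, was at 75.9 ± 2.51 CPM in NOZ against 96.5 ± 2.43 CPM in NOZ-R (0.34 ± 0.0603, edgeR adjusted p = 2.31e-04). The difference in CD47 was small beside that in THBS1.

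Among integrins, which bind CCN proteins, periostin and tenascin-C, ITGA5 rose from 104 ± 9.91 to 353 ± 4.53 CPM (1.77 ± 0.0679, edgeR adjusted p = 9.51e-11). ITGAV (0.36 ± 0.0772, edgeR adjusted p = 0.00111) and ITGB5 (0.62 ± 0.0665, edgeR adjusted p = 2.53e-06) were higher too, while ITGB1 was not called (-0.15 ± 0.0703, edgeR adjusted p = 0.0872). ITGB1 was called lower in 8 of 18 alternative settings, among them size-only scaling, GC correction and those without NOZ replicate 1 (-0.18) or NOZ-R replicate 3 (-0.20). ITGB3 was not tested, with NOZ counts of 9, 4 and 3 against 19, 7 and 9 for NOZ-R. SDC4, a heparan sulfate proteoglycan that binds fibronectin and thrombospondin, rose from 236 ± 13.7 to 684 ± 10.7 CPM (1.54 ± 0.0548, edgeR adjusted p = 4.63e-11). LRP1, which clears thrombospondins from the cell surface, rose by 0.73 ± 0.0603 (edgeR adjusted p = 2.18e-07), and LRP6 (-0.55 ± 0.0742, edgeR adjusted p = 2.36e-05) and ITGB8 (-0.47 ± 0.123, edgeR adjusted p = 0.00463) fell.

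Of 24 genes of latent TGF-beta activation and response, 22 were tested, 16 were higher and 2 lower, with a median log2 fold change of 0.44. The split was 13 higher and 2 lower with size-only scaling, and 16 and 2 after GC correction. The ligands TGFB1 (0.42 ± 0.0755, edgeR adjusted p = 2.70e-04) and TGFB2 (0.28 ± 0.0810, edgeR adjusted p = 0.00839) were higher, TGFB2 without a call under size-only scaling. TGFBR3, the co-receptor betaglycan, rose from 7 pooled counts to 567 (6.38 ± 0.309, edgeR adjusted p = 9.86e-10), while TGFBR2, the signalling receptor, fell by 0.23 ± 0.0516 (edgeR adjusted p = 0.00186). BHLHE40, a response gene, rose by 1.60 ± 0.0610 (edgeR adjusted p = 8.85e-11). SMAD6, an inhibitory SMAD, fell by 0.46 ± 0.0990 (edgeR adjusted p = 0.00114).

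CCN1, CCN2 and ANKRD1 are standard readouts of YAP and TEAD, and the last of these went the other way: ANKRD1 was at 50.7 ± 5.39 CPM in NOZ against 38.1 ± 1.504 CPM in NOZ-R (-0.42 ± 0.0849, edgeR adjusted p = 7.86e-04; named after its value was seen). Of 33 listed regulators and targets of YAP, TEAD and SRF, 32 were tested, 15 were higher and 5 lower, with a median log2 fold change of 0.14. The split was 11 higher and 10 lower when libraries were scaled by size only, and 14 and 10 after GC correction. YAP1 rose by 0.20 ± 0.0530 (edgeR adjusted p = 0.00590) and lost its call under size-only scaling, and WWTR1, which encodes its partner TAZ, fell by 0.47 ± 0.0524 (edgeR adjusted p = 4.08e-06). F3, the tissue factor gene, rose by 1.31 ± 0.0674 (edgeR adjusted p = 1.89e-09) and FHL2 by 1.03 ± 0.0633 (edgeR adjusted p = 1.09e-08), and VCL, the vinculin gene, fell by 0.55 ± 0.0469 (edgeR adjusted p = 2.91e-07).

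**Figure D3:**
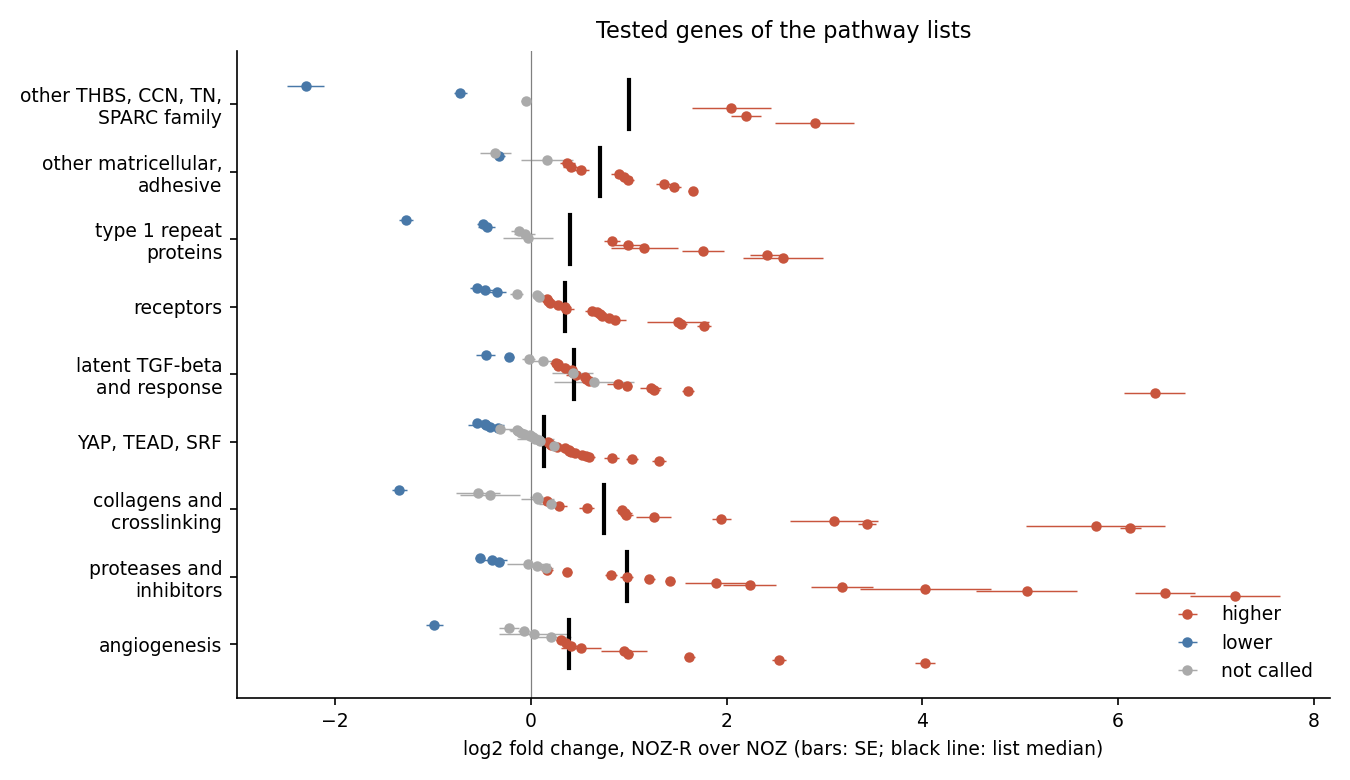
Log2 fold change of NOZ-R over NOZ (horizontal axis) for every tested gene of the pathway lists (rows of points, bars SE, black line the list's median), coloured by call. The YAP, TEAD and SRF genes crowd around their median of 0.14, and estimates for genes with few or no NOZ counts, such as MMP13, TIMP3 and TGFBR3 at the right, depend on the prior count or on a few reads.

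Periostin, SPARC and tenascin-C act on collagen. Of 24 collagens and collagen-modifying genes, 18 were tested, 12 were higher and 1 lower, with a median log2 fold change of 0.75. The split was 10 higher and 2 lower with size-only scaling, and 11 and 2 after GC correction. PLOD2, the lysyl hydroxylase that sets the type of collagen crosslink, rose from 3.41 ± 0.594 to 240 ± 17.2 CPM (6.13 ± 0.106, edgeR adjusted p = 5.31e-14), and COL6A3 from 6.76 ± 0.524 to 73.4 ± 5.15 CPM (3.44 ± 0.0944, edgeR adjusted p = 3.19e-12). COL5A2 fell from 67.5 ± 3.86 to 26.6 ± 2.20 CPM (-1.34 ± 0.0808, edgeR adjusted p = 8.94e-09). The major fibrillar collagen genes were barely present, with COL1A1 at 2.59 ± 0.414 CPM in NOZ against 1.79 ± 0.212 CPM in NOZ-R (edgeR adjusted p = 0.0548, but called lower in 5 of 18 alternative settings) and COL1A2 at 0 counts in NOZ against 3, 1 and 0 in NOZ-R.

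Of 26 proteases and inhibitors that act on matricellular proteins, 19 were tested, 13 were higher and 3 lower, with a median log2 fold change of 0.98. The split was 12 higher and 3 lower both with size-only scaling and after GC correction. MMP13, a collagenase, had 2 pooled counts in NOZ and 327 in NOZ-R, a ratio of scaled counts of 176 (exact 95% interval, 48.3 to 1458), and both NOZ counts were in NOZ replicate 1. TIMP3, a matrix-bound metalloprotease inhibitor, rose from 7 pooled counts to 617 (6.48 ± 0.309, edgeR adjusted p = 8.60e-10). Of the 7 counts 5 were in NOZ replicate 3, and without that library the estimate was 7.72. SERPINE2, an inhibitor of thrombin and urokinase, fell from 453 ± 3.22 to 315 ± 13.0 CPM (-0.52 ± 0.0505, edgeR adjusted p = 1.02e-06). ADAMTS1, which cleaves thrombospondin-1, had 0 counts in NOZ against 1, 3 and 6 in NOZ-R. MMP15 passed the test (-0.40 ± 0.159, edgeR adjusted p = 0.0436) but lost its call in 8 of 18 settings, among them without NOZ replicate 1, NOZ replicate 3 or any 1 of the NOZ-R libraries.

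Of 20 angiogenesis regulators, 14 were tested, 9 were higher and 1 lower, with a median log2 fold change of 0.39 (8 higher and 3 lower both with size-only scaling and after GC correction). ANGPTL4 rose from 4.19 ± 0.580 to 68.2 ± 3.16 CPM (4.03 ± 0.104, edgeR adjusted p = 1.60e-12) and CXCL8, the interleukin-8 gene, from 19 ± 0.728 to 110.0 ± 4.88 CPM (2.53 ± 0.0715, edgeR adjusted p = 4.12e-12). SERPINF1, which encodes an inhibitor of vessel growth, fell from 27.2 ± 0.418 to 13.7 ± 0.962 CPM (-0.99 ± 0.0882, edgeR adjusted p = 4.62e-07). Thrombospondin-1, itself an inhibitor of vessel growth, and SERPINF1 were on opposite sides of 0.

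Periostin, SPARC and the thrombospondins are made in quantity by fibroblasts and platelets, so markers of other cell types were read beside them. The summed level of 15 fibroblast and stellate markers was 17.0 to 18.2 CPM in the NOZ libraries and 86.2 to 95.9 CPM in the NOZ-R libraries, and of the 8 tested 4 were higher and 1 lower. COL6A3 alone accounted for 73.4 CPM in NOZ-R, while COL1A2 had at most 3 counts and THY1 at most 1 count in a library. FAP, a fibroblast protease, had 0 counts in NOZ against 17, 14 and 20 in NOZ-R. The part of these markers in the levels of POSTN and SPARC was not tested.

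Of the platelet markers PF4, PPBP and GP9 were at 0 in all 6 libraries, and the 1 marker of that list that was tested, GP1BA, was lower (log2 fold change -0.56 ± 0.229 SE, edgeR adjusted p = 0.0495). The summed platelet level was 2.71 to 3.49 CPM in NOZ against 2.29 to 3.59 CPM in NOZ-R. Of the endothelial markers 2 were tested and both were higher (PECAM1 and ESAM, summed level of the list 35.0 to 39.2 against 60.1 to 63.7 CPM), with VWF at no more than 2 counts and KDR at no more than 1 count per library. The leukocyte list summed to 3.71 to 6.34 CPM in NOZ against 6.50 to 7.25 CPM in NOZ-R, and of its 3 tested markers 2 were higher and 0 lower. The part of platelet, endothelial and leukocyte markers in the members' levels was not tested.

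**Figure D4:**
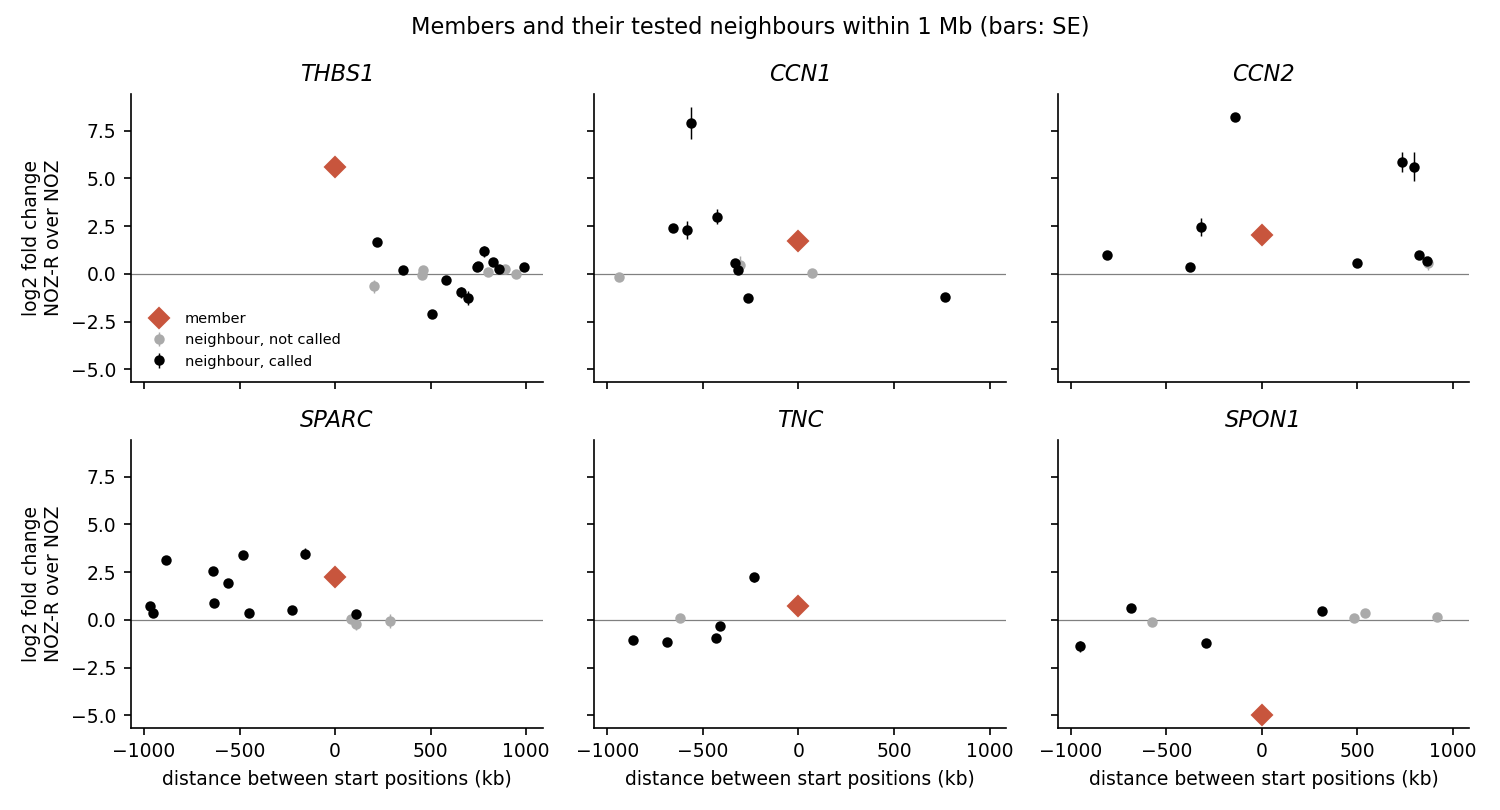
Log2 fold change of NOZ-R over NOZ (vertical axis, bars SE) of 6 matricellular genes (red diamonds at 0) and of the tested genes within 1 Mb, by distance between annotated start positions in kb (horizontal axis). A start position is the lower coordinate of a gene on either strand, not its start of transcription. Around CCN2 and SPARC the called neighbours all lie above 0, whereas THBS1 and SPON1 stand far from their neighbours.

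Genes around each member were read to see whether a change was shared along the chromosome. Distance was taken between the lower coordinates of the genes, whatever their strand. Within 1 Mb of THBS1, 18 genes were tested, 8 were higher and 4 lower, with a median log2 fold change of 0.21, beside 0.04 over chromosome 15. The nearest with a symbol was GPR176, a receptor gene, which rose from 20.2 ± 1.95 to 63.1 ± 3.34 CPM (1.64 ± 0.0854, edgeR adjusted p = 2.05e-09). Within 1 Mb of SPON1, 8 genes were tested, of which 2 rose and 2 fell, with a median of 0.13. The nearest gene on either side was FAR1, a fatty acyl reductase, which fell (-1.23 ± 0.0867, edgeR adjusted p = 4.46e-08), and RRAS2, which rose (0.46 ± 0.0706, edgeR adjusted p = 7.17e-05). Neighbours of SPON1 thus went both ways, where SPON1 itself fell by 4.96 on the log2 scale.

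Around CCN2, 9 of 10 tested neighbours were higher and 0 lower, with a median log2 fold change of 0.99 beside 0.33 over chromosome 6, and the median was 0.55 within 2 Mb. ENPP1, a pyrophosphatase and the nearest of them, went from 9 pooled counts in NOZ to 2600 in NOZ-R, and VNN1 and VNN2, which encode vanins, from 2 to 128 and from 1 to 63. Around SPARC, 11 of 14 rose and 0 fell, with a median of 0.63 beside -0.05 over chromosome 5. Within 2 Mb of SPARC, 15 of 26 rose and 0 fell, with a median of 0.40. ANXA6, an annexin gene among them, rose from 66.4 ± 9.36 to 255 ± 13.2 CPM (1.94 ± 0.0888, edgeR adjusted p = 5.57e-10). These counts are descriptions beside the 30.4% of all genes called higher.

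Around TNC, 1 of 6 neighbours was higher and 4 were lower, with a median log2 fold change of -0.65, near the -0.64 of the whole of chromosome 9. TNC was thus higher in NOZ-R on a chromosome whose median was below 0. The nearest neighbour, TNFSF15, a cytokine gene, rose as well (2.23 ± 0.242, edgeR adjusted p = 2.98e-06). Around POSTN, 0 of 5 were higher and 3 lower (median -0.53, beside -0.38 over chromosome 13). Around CCN1, 6 of 11 were higher and 2 lower (median 0.48, and 0.22 within 2 Mb), and its nearest neighbours were ZNHIT6, which was not called (0.05 ± 0.0903, edgeR adjusted p = 0.658), and DDAH1, which fell (-1.27 ± 0.0954, edgeR adjusted p = 8.42e-08). The genes around THBS2, THBS3 and SPON2 had medians between 0.02 and 0.14.

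Across the 18 alternative settings no member changed direction. THBS1, CCN1, CCN2, POSTN, SPARC and SPON1 kept their calls in all of them, with CCN1 between 1.58 and 1.79 and CCN2 between 1.80 and 2.10 on the log2 scale. TNC lay between 0.57 and 0.77 and lost its call only in the test against a 2-fold change. The lowest THBS1 value and the least negative SPON1 value came from the log2(FPKM + 1) scale.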

How the data were processed

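Poly-A RNA of 3 NOZ and 3 NOZ-R samples was copied with random primers and amplified by PCR, per the labels' protocols, with no strand-marking step or molecular identifier described. The authors deposited counts per gene, not normalized, and FPKM values, which equal counts per library total and gene length. Per the submitters' processing notes, the tool fastp 0.22.0 and the build GRCh38 were used. Aligner, counter, strand setting and annotation were not given in the sources used here.

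Samples were grouped by their labels. Counts were filtered with filterByExpr, TMM-scaled (factors 0.954 to 1.05) and tested with the quasi-likelihood test of edgeR 4.0.16 in R 4.3.3, with Benjamini-Hochberg adjustment over 14386 genes at 0.05. A standard error is the log2 fold change divided by the square root of F. On data simulated from this comparison (14386 genes, 200 changed), 59.0% of changes of 0.5 on the log2 scale and 96.4% of changes of 2 were recovered, and 5.97% of calls were false. In the real comparison 60.2% of genes were called, far more than were changed in the simulation, so these rates do not carry over to it. Members and gene lists were chosen with earlier results of these data known. Named genes were all members, up to 2 called genes with the highest and 2 with the lowest change per list at a mean of at least 1 CPM, a fixed set of receptors, ligands and targets, the 3 genes most like THBS1 or SPON1 and overlapping genes, of which 1 gene is not reported here. ANKRD1, KRT7, CDH1, FAP, GP1BA, PECAM1, ESAM, the genes near members and further markers were named after their values were seen. Positions are from GENCODE release 29, found for 96.7% of tested genes, and promoters from RefSeq, GRCh38.p14. Alternatives were other scalings, filters and tools (DESeq2 1.42.0, limma 3.58.1 on log2 FPKM), GC correction, a replicate block and leaving out each library. Libraries of a line differed by more than counting noise (mean chi-square per gene 2.16 to 11.2).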

Additional observations from a re-analysis of the deposited data

How the results depend on the processing

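Against a 2-fold change, 847 genes were higher and 442 lower, 5 members were higher and 1 lower. Called genes then numbered 3 other matricellular genes, 4 type 1 repeat genes, 2 receptors, 3 TGF-beta genes, 1 YAP, TEAD and SRF gene, 6 collagen genes, 9 proteases and inhibitors and 3 angiogenesis genes, since that test asks for more than a difference from 0. At an adjusted p below 0.01, 1 member was lower. Leaving out 1 library gave 1 to 2 members lower (1 without NOZ-R replicate 3). No value reversed. Scaling by library size only moved the median of all genes from -0.01 to -0.14 and gave 3316 genes higher and 5468 lower, against 4379 and 4284, and the members' directions held.

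The deviations of same-numbered libraries correlated at 0.07, -0.02 and -0.04, within the range of differently numbered ones (-0.09 to 0.10). Deviations from the mean of so few libraries cannot decide whether same-numbered libraries were prepared together, and the labels do not say. With the replicate block 4324 genes were higher and 4180 lower, THBS1 was at 5.58 and THBS3, at -0.57, lost its call. Low counts limit THBS2, SPON2 and SPARC.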
